A study of Arabidopsis thaliana with 2 samples.

Results

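Long introns of protein-coding genes were described in bisulfite sequencing libraries of first generation ibm1-1 homozygous *Arabidopsis thaliana*, a mutant without the histone H3K9 demethylase IBM1. A long intron was an intron of 1000 bp or more in the representative model of a protein-coding gene on chromosomes 1 to 5. It also needed 10 or more CpHpG cytosines with reads (H is A, C or T) and an average depth of 4 or more over its CpHpG cytosines in the Col-0 library. This rule, which uses length and coverage but no methylation level, kept 433 of 737 introns of that length, in 424 genes, out of 23230 introns of any length with the same coverage and 118119 annotated introns. One library came from ibm1-1 in the Ler-0 ecotype and 1 from ibm1-1 in the Col-0 ecotype, both from rosette leaves of 3-week-old plants kept in long days (16 h light, 8 h dark) at 21°C. The Ler-0 line had been made by repeated backcrosses of this mutant to Ler-0, so both groups carry the same ibm1-1 allele. There was no replicate and no WT library, so the values below show neither the spread between plants nor what ibm1-1 changed, and every test compares the calls of 1 library or of 1 region with those of another. How many plants went into each library is not given in the sources used here.

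In plants, CpG methylation is copied by MET1 at replication, CpHpG methylation is kept by CMT3 in a loop with H3K9 methylation written by KYP, SUVH5 and SUVH6, and CpHpH methylation is set by CMT2 or by the RNA-directed pathway with DRM2. Transposons and their remnants carry methylation in all of these contexts, whereas the bodies of many active genes carry CpG methylation alone. IBM1 removes the H3K9 methylation that would draw CMT3 into such gene bodies. Most *Arabidopsis* introns are short, and some of the long ones hold inserted transposons. Long methylated introns are known in IBM1 itself and in RPP7, a gene for resistance to downy mildew, where full-length transcripts depend on proteins that read the intron chromatin, such as EDM2 and IBM2.

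The Ler-0 library held 313387873 calls at a mean of 6.58 per cytosine, and the Col-0 library 371653818 calls at a mean of 8.63. Methylated calls made up 1.39% of chloroplast calls in Ler-0 and 1.34% in Col-0, a share that stands for unconverted cytosines. An exon of another model lies inside 136 of the 433 long introns and another gene overlaps 77, and calls there were counted as intron. Of the 433 long introns, 374 had a unique place in the Ler-0 sequence and 240 of these also had the coverage there. Cytosines that Ler-0 has and Col-0 lacks, counted in introns of any length, had reads at 58.5% of 904 positions within the first 9000000 bp of chromosome 3, which holds IBM1, and at 86.2% of 12084 positions elsewhere, while shared cytosines had reads at 89.1% and 87.9%. Of the placed long introns, 25 lie in that stretch, and without it the median and the counts given for Ler-0 stayed close (17 in place of 19 introns at 50% CpHpG methylation or more).

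The sequences below show what CpHpG methylation looked like inside these introns. Each is the stretch of 120 bp with the most CpHpG cytosines read 5 times or more, written 5′ to 3′ along the gene from the TAIR10 sequence. Capitals mark CpHpG cytosines methylated at 50% or more, as C on the strand shown and as G for a cytosine of the other strand. The first 3 come from heavily methylated introns of RPP7, of the defensin-like gene AT5G55565 and of AT1G60200, which encodes a splicing factor of the PWI domain type. The next is FLC, the repressor of flowering, whose first intron is a known regulatory element. IBM1 and the protein kinase gene AT5G38210 are shown with the levels of both libraries on the same Col-0 bases.
RPP7 intron 1, Col-0: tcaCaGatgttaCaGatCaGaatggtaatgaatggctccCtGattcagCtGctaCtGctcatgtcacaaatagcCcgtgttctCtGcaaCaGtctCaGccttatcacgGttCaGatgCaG
AT5G55565 intron 1, Col-0: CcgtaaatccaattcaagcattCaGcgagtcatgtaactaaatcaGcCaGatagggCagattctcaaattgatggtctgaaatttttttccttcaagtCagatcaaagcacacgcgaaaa
AT1G60200 intron 1, Col-0: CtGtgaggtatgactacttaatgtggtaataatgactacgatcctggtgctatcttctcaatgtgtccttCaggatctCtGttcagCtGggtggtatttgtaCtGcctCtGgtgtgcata
FLC intron 1, Col-0: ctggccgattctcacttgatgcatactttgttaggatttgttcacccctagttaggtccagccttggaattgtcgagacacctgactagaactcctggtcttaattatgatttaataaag
IBM1 intron 7, Ler-0: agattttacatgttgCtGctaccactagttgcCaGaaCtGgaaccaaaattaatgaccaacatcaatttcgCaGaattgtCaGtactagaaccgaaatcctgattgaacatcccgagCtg
IBM1 intron 7, Col-0: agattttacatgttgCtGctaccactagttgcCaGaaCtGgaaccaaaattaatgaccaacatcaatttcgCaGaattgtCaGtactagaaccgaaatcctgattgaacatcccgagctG
AT5G38210 intron 1, Ler-0: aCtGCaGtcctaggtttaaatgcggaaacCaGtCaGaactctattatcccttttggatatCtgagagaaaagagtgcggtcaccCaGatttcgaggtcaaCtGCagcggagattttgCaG
AT5G38210 intron 1, Col-0: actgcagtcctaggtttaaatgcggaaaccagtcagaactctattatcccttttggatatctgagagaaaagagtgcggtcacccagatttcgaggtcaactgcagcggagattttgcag
In the RPP7 stretch (chr1:21749614-21749733) 24 of 26 CpHpG cytosines were methylated at 50% or more, and in the FLC stretch (chr5:3177460-3177579) 0 of 8, the highest being at 16.7%. The stretches of AT5G55565 (chr5:22511030-22511149) and AT1G60200 (chr1:22203900-22204019) had 8 of 10 and 11 of 16. The IBM1 stretch (chr3:2430385-2430504) had 11 of 16 in Ler-0 and 11 of 16 in Col-0. In AT5G38210 (chr5:15262996-15263115) 16 of 20 were at 50% or more in Ler-0 and 0 of 20 in Col-0.

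Many long introns carried little CpHpG methylation and a small group carried a lot, as was also the case over introns of any length. Levels are methylated calls as a percentage of all calls of one context in an intron. The median CpHpG level was 6.49% in Ler-0 (95% interval of the median 4.46 to 9.63%, 240 introns) and 3.51% in Col-0 (3.10 to 4.32%, 433 introns). Of these, 110 introns in Ler-0 (45.8%) and 244 in Col-0 (56.4%) were under 5%. Over introns of any length the shares under 5% were 42.0% in Ler-0 and 55.3% in Col-0. At the other end, 19 of 240 in Ler-0 (7.92%) and 32 of 433 in Col-0 (7.39%) reached 50% or more, where the share over introns of any length was 11.9% in Ler-0 and 5.02% in Col-0. Pooled over all calls, long introns stood at 28.1% CpHpG methylation in Ler-0 and 26.0% in Col-0, and introns under 1000 bp at 25.2% in Ler-0 and 16.5% in Col-0. Over the 240 long introns covered in both libraries, the pooled Col-0 level was 23.2%. A pooled level weights introns by their calls, so long and deeply read introns such as intron 1 of RPP7 (76.7% in Col-0) count more than others. In Col-0, pooled CpHpH levels were 6.44% in long and 2.27% in shorter introns, and pooled CpG levels 44.5% in long and 30.8% in shorter introns. By median, long introns were not the higher ones, since shorter introns had a median CpHpG level of 8.07% in Ler-0 and 4.05% in Col-0.

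Depth and length went with the level. With the depth limit raised to 8 reads, the median CpHpG level was 41.3% in Ler-0 and 24.3% in Col-0, where 109 introns were left. The 54 introns of 2000 bp or more were at a median of 14.2% in Col-0, with 25 of the 54 at 20% or more. Introns with 50% CpHpG or more had a median depth of 9.67 reads in Col-0, and those under 5% had 5.33 reads. The part of depth in these levels was not tested. The 304 long introns outside the coverage rule were at a median of 2.91% in Col-0 (303 with any call), with 6 at 50% or more. Just inside the limit, 72 introns with 4 to 4.5 reads had a median of 2.57%, and just outside it 61 introns with 3.5 to 4 reads had 2.66%.

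Compared with the exons of their own genes, long introns differed in both directions. Fisher's exact test on the calls, adjusted over all introns of any length, called a difference at an adjusted p under 0.01 and at least 20 points of CpHpG (40 of CpG, 10 of CpHpH). In Ler-0, CpHpG methylation was higher than in the exons in 23 of 222 long introns (10.9% of all 17788 introns tested) and lower in 16 (9.51% of all), shares close to or under those of all introns. In Col-0 it was higher in 50 of 425 (7.02% of all 23133) and lower in 17 (6.05% of all). CpG methylation in Ler-0 was higher than in the exons in 26 long introns (9.62% of all) and lower in 21 (17.3% of all). In Col-0 it was higher in 51 (8.72% of all) and lower in 29 (15.4% of all). For long introns the higher calls thus outnumbered the lower ones, and over all introns the reverse held. Against coding exons alone the Col-0 counts for long introns were nearer each other, 49 higher and 40 lower. The median CpG difference in Col-0 was -0.49 points, with 194 long introns above and 231 below their exons. CpHpH methylation in Col-0 was higher than in the exons in 41 (0.532% of all) and lower in 3 (0.0908% of all). The median difference was small, 1.05 points of CpHpG in Ler-0 and 0.27 points in Col-0. Of 221 introns tested in both libraries, 16 were higher and 7 lower than their exons in both, out of 23 higher and 16 lower in Ler-0 and 22 higher and 10 lower in Col-0. None was called in opposite directions.

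**Figure D1:**
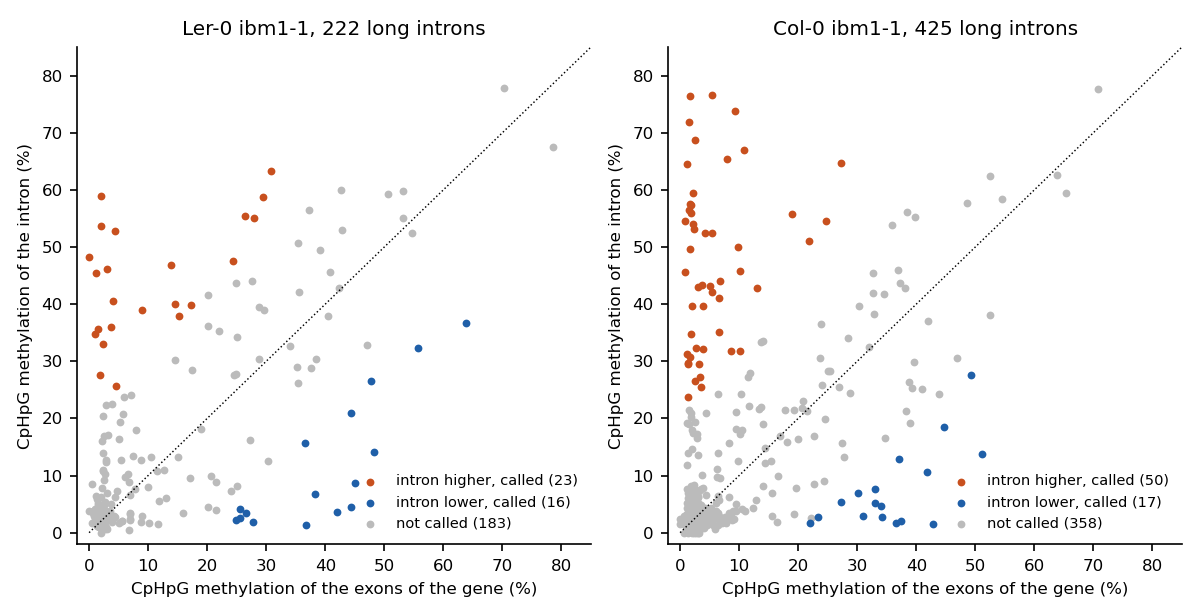
CpHpG methylation of each long intron (vertical axis, %) against that of the exons of its gene (horizontal axis, %), in the Ler-0 library (left, 222 introns) and the Col-0 library (right, 425 introns). Orange points are introns called higher than their exons (23 and 50), blue points are called lower (16 and 17), grey points are not called, and the dotted line marks equal levels. In Col-0 a column of orange points rises from exons near 0%.

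The 50 introns called higher than their exons in Col-0 stood at a median CpHpG level of 45.7%, beside exons with a median of 3.25%. In 32 of the 50 the exons were under 5%. Low exon levels were common, since over all 425 long introns with tested exons the exon median was 2.98%, with 275 under 5%. Among introns with 30 or more CpHpG cytosines read 5 times or more, RPP7 had the largest difference. Its intron 1 (chr1:21746500-21753883, 7384 bp, in the 5′ leader) was methylated at 76.7% of 14714 CpHpG calls (95% Wilson interval 76.0 to 77.3%), 71.2 points above its exons at 5.45%. In windows of 100 bp, 54 of 63 windows with at least 3 covered CpHpG cytosines were at 50% or more, from 900 bp into the intron onwards, with 1700 bp as the longest run of adjacent windows at 50% or more. Intron 2 of RPP7 (4420 bp) stood at 52.4%. CpG methylation was 90.8% and 91.7% in these introns but CpHpH methylation only 11.5% and 7.22%. In the same set AT5G55565 followed, with 68.7% in an intron of 3074 bp beside exons at 2.48% (66.2 points, Fisher's exact test, adjusted p = 9.8e-44), and AT5G17165, with 57.3% in an intron of 4209 bp beside exons at 1.83% (55.5 points, adjusted p = 4.2e-83 by the same test). None of these introns had a place in Ler-0. With no such limit on reads, BAT1 had the largest difference of the 50, at 74.7 points, and AT1G53640 came after RPP7 with 70.4 points.

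Named metabolic genes stood among the 32 introns at 50% or more in Col-0, here chosen after their values were seen. BAT1, an acyltransferase that acts on brassinosteroids, had 76.4% in its intron and 1.66% in its exons. PAL4, a phenylalanine ammonia-lyase, had 59.5% and 2.17%, and FMO GS-OX2, an enzyme that oxidises glucosinolates, had 56.5% and 1.47%. CKX3, a cytokinin oxidase, had 53.1% and 2.34%. CYP714A2, a P450 that acts on gibberellins, had 65.5% and 7.92%. In each of these 5 the CpHpH level of the intron lay between 24.1% (CKX3) and 47.3% (BAT1).

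Introns lower than their exons showed the opposite picture. The 17 called lower in Col-0 were at a median CpHpG level of 5.20%, beside exons with a median of 34.2%, and 10 of the 17 were first introns, as were 237 of all 433. HOS10, an MYB-type regulator of stress responses, had 1.47% in an intron of 1622 bp and 42.9% in its exons (Fisher's exact test, adjusted p = 2.5e-49). QWRF8 had 6.76% in Ler-0 and 13.8% in Col-0 in a leader intron of 1230 bp, beside exons at 38.3% in Ler-0 and 51.1% in Col-0, and was called lower in both libraries. AT2G34110, whose leader intron of 9724 bp is among the 3 longest and overlaps 4 other annotated genes, had 11.6% in Ler-0 and 10.6% in Col-0, with exons at 41.9% in Col-0. The longest intron of all, 10234 bp in AT3G60961, was at 8.24% in Col-0, with exons at 1.90%.

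The methylated introns could be divided by their CpHpH level. In Col-0, 108 of 433 long introns had at least 20% CpHpG, beside 5308 of 23230 introns of any length. In Ler-0 the counts were 73 of 240 long introns and 6499 of 18210 introns of any length. Of the 108 long introns in Col-0, 55 had at least 10% CpHpH, 15 had 5 to 10% and 38 had under 5%. The CpHpH-rich introns had a median of 80.7% CpG, 45.6% CpHpG and 20.4% CpHpH, in genes whose exons had a median of 4.25% CpHpG and 9.06% CpG. The CpHpH-poor introns had medians of 65.6% CpG, 29.1% CpHpG and 2.82% CpHpH, in genes whose exons also carried methylation, with medians of 21.7% CpHpG and 57.8% CpG. Over all long introns with tested exons in Col-0, exons had medians of 2.98% CpHpG and 9.34% CpG, and 68 of 425 reached 20% CpHpG. Exons reached 20% CpHpG in 16 of 54 CpHpH-rich cases with tested exons and in 22 of 37 CpHpH-poor ones. CpHpH-rich introns were called higher than their exons in 33 of 54 cases and CpHpH-poor ones in 11 of 37. The call was made in 50 of 425 long introns and in 7.02% of all introns tested. Both groups were chosen by their CpHpG level in the same library, so part of these counts is set by the choice.

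Repeated sequence, which the rule did not use, went with the CpHpH-rich group. It was measured as the share of intron positions in 25-mers found more than once in the nuclear genome, of which there were 10.4% over the genome. The median share was 24.2% in CpHpH-rich and 0.52% in CpHpH-poor introns, and 31 of 55 and 5 of 38 had a share of at least 20%. Over all long introns the median share was 0% among those under 5% CpHpG, 6.63% at 20 to 50% and 28.6% at 50% or more. There were exceptions on either side. The intron of AT1G53640, at 58.9% CpHpG in Ler-0 and 71.9% in Col-0 with 30.6% CpHpH in Col-0, had a share of 4.42%, and that of CYP714A2 had 0.81%. Reads from repeats can be assigned to a wrong copy, and this was not tested. GC content was lower in the CpHpH-rich group, with medians of 29.1% and 35.2%. Of the long introns, 430 of 433 began with GT and ended with AG (99.3%), and of shorter introns 98.9%.

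**Figure D2:**
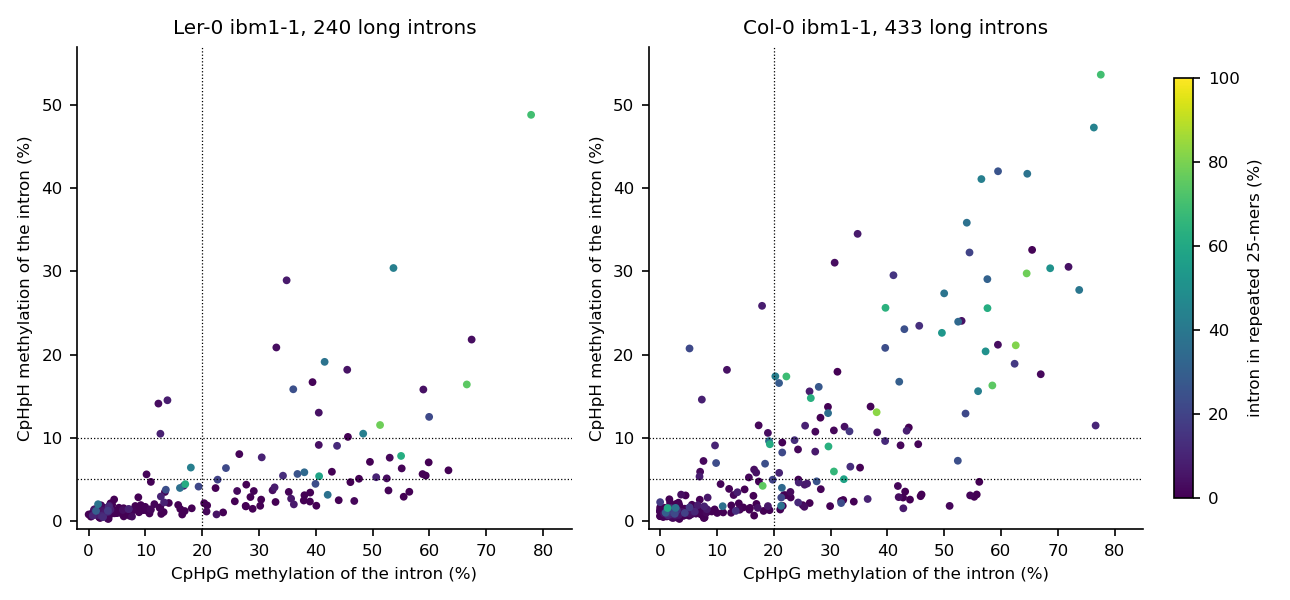
CpHpH methylation (vertical axis, %) against CpHpG methylation (horizontal axis, %) of each long intron in the Ler-0 library (left, 240 introns) and the Col-0 library (right, 433 introns), coloured by the share of the intron in repeated 25-mers of Col-0. Dotted lines mark 20% CpHpG and 5% and 10% CpHpH. Past 20% CpHpG in Col-0, 55 introns lie above the upper line and 38 below the lower one, and the lighter colours sit mostly in the upper group.

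Some CpHpH-poor introns were highly methylated in both libraries, and the first 2 given here were chosen after their values were seen. YAK1, a protein kinase gene, had 55.5% in Ler-0 and 55.7% in Col-0 in its first intron (1276 bp), beside exons at 26.5% in Ler-0 and 18.9% in Col-0. AT5G24740, encoding a vacuolar protein sorting-associated protein, had 59.9% in Ler-0 and 56.2% in Col-0 in intron 11, beside exons at 53.1% in Ler-0 and 38.5% in Col-0. Both introns have a repeat share of 0%. AT1G33680, encoding a KH domain protein, reached 63.3% in Ler-0 and 45.9% in Col-0 in its last intron, with exons at 30.8% in Ler-0 and 10.2% in Col-0, and was called higher than its exons in both libraries.

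In 11 of the 108 introns CpHpG methylation exceeded CpG methylation in Col-0. Of 9 that were covered in Ler-0, 7 showed the same there. The excess in Col-0 was small in some, such as BAT1 (76.35% CpHpG and 76% CpG) and AT1G27595 (41.99% and 40.65%). The share over introns of any length is not given here. In the first intron of AT1G60200 CpG methylation was 44.6% of 148 calls in Ler-0 and 13.0% of 193 calls in Col-0, whereas CpHpG methylation was 56.5% in Ler-0 and 55.3% in Col-0, beside exons with 69.6% CpG and 39.8% CpHpG methylation in Col-0. AtRZ-1c, a glycine-rich RNA-binding protein gene, had 14.2% CpG and 39.0% CpHpG in Ler-0 and 20.3% CpG and 42.8% CpHpG in Col-0 in an intron of 1923 bp. Exons of other models lie inside the introns of both AT1G60200 and AtRZ-1c. NERD, whose product takes part in RNA silencing, had 12.8% CpG and 38.0% CpHpG in Ler-0 and 11.3% CpG and 26.3% CpHpG in Col-0. IAMT1, an auxin methyltransferase gene, differed from these in being rich in CpHpH in Col-0, with 16.1% CpG, 34.8% CpHpG and 34.5% CpHpH. CpG sites were few in some of these introns, with 443 CpG and 2486 CpHpG calls in AtRZ-1c in Col-0, but IAMT1 had 242 CpG and 233 CpHpG calls there. All introns named in this comparison were chosen after their values were seen.

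The position of the methylation was described for both groups. Levels were read in steps of 100 bp on both sides of each splice site, where sequence outside the intron includes neighbouring exons, other introns and, near gene ends, sequence beyond the gene. In Col-0 the CpHpH-rich introns had median CpHpG levels of 0.56 to 3.85% in the 500 bp before the 5′ splice site, 5.18% in the first 100 bp of the intron and 59.6% at 400 to 500 bp inside. At the other end the median was 25.9% in the last 100 bp and 3.67% in the first 100 bp after the 3′ splice site. In CpHpH-poor introns the medians before the 5′ splice site were likewise low, 2.82 to 5.71%, and the level inside was 26.8% at 400 to 500 bp. After the 3′ splice site, however, the median stayed at 30.1% in the first 100 bp and 20.8% in the last 100 bp of the 500 bp read. Ler-0, at the same introns, gave 4.17 to 6.97% before the 5′ splice site of CpHpH-poor introns and 27.8 to 43.0% after the 3′ splice site. Its CpHpH-rich group is thin, with 3 to 20 introns per step, and its medians were 4.05 to 8.33% after the 3′ splice site. These low medians stand for most but not all CpHpH-rich introns, because the level pooled over calls in the first 100 bp after the 3′ splice site was 35.0% in Ler-0 and 32.0% in Col-0. Over all members the pooled level in the innermost step at the 5′ splice site was 20.7% in Ler-0 and 21.0% in Col-0.

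**Figure D3:**
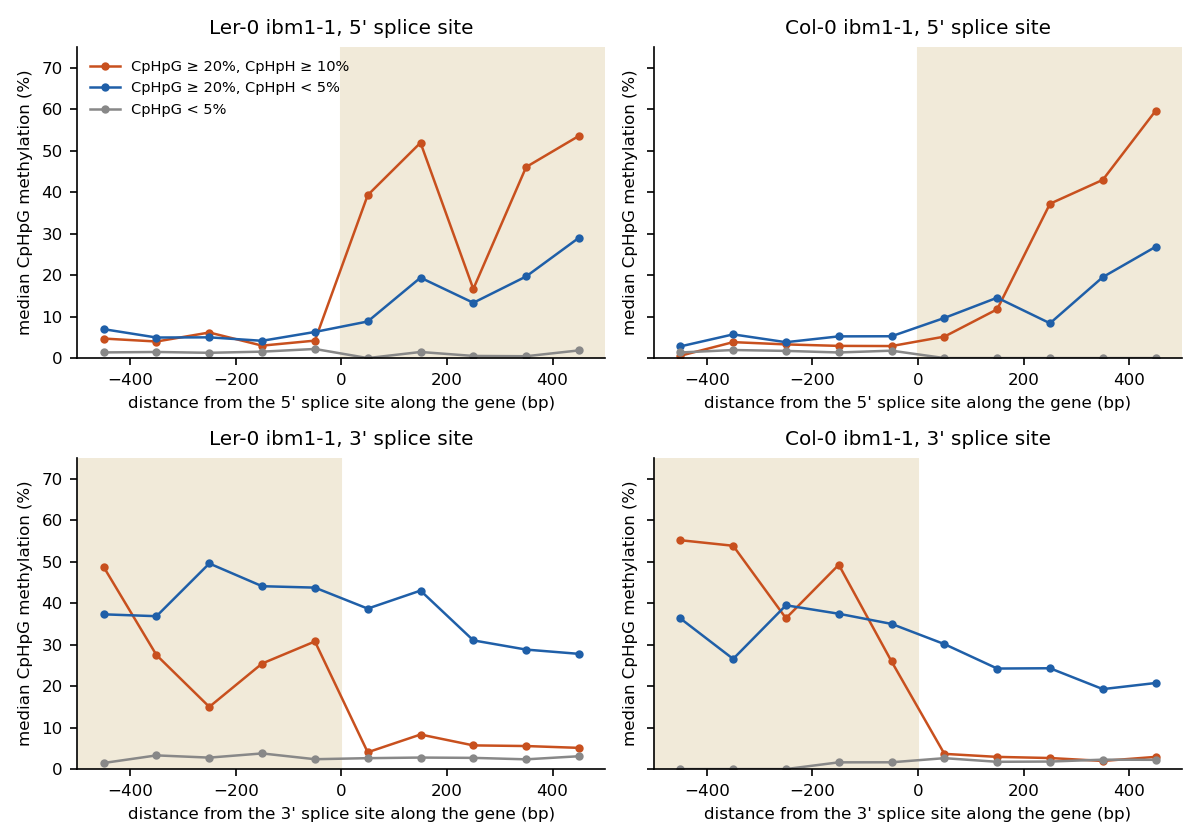
Median CpHpG methylation (vertical axis, %) in steps of 100 bp from 500 bp before to 500 bp after the 5′ splice site (top) and the 3′ splice site (bottom), in Ler-0 (left) and Col-0 (right), with the intron side shaded. Lines are long introns grouped by their Col-0 levels. CpHpH-rich introns (orange) are at 4.05% in Ler-0 and 3.67% in Col-0 in the first step past the 3′ splice site, where CpHpH-poor introns (blue) are at 38.7% and 30.1%.

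The 100-bp windows, each with at least 3 covered CpHpG cytosines, showed that the level varied within many introns. Of 3567 windows read in Col-0, 458 (12.8%) were at 50% or more, in 105 of the 433 introns, and 66 of these 105 also held a window under 5%. A run of adjacent windows at 50% or more that spanned at least 500 bp, with no unread window inside, was present in 9 introns. Of these, 8 were at 50% CpHpG or more over the whole intron and 1 at 20 to 50%, so long blocks hidden by a low mean were rare. Among the 76 introns at 20 to 50% CpHpG, 62 had a window at 50% or more. The intron of IBM1 (chr3:2429125-2431098, intron 7 of 15, 1974 bp) is such a case. It had 29.1% CpHpG in Ler-0 (95% Wilson interval 25.8 to 32.6%, 681 calls) and 23.0% in Col-0 (19.9 to 26.4%, 644 calls), a difference that was not called (6.09 points, Fisher's exact test, adjusted p = 0.0388). Its methylated windows lay between 1100 and 1500 bp into the intron, where the window at 1200 to 1300 bp had 65.4% in Ler-0 and 73.5% in Col-0, and 6 of 11 windows in Col-0 were under 5%. The exons of IBM1 had 35.2% in Ler-0 and 20.8% in Col-0, and the intron was called different from them in neither library. The gene lies in the stretch of chromosome 3 in which fewer Ler-0-only cytosines had reads, and how far this line differs from Col-0 at IBM1 was not tested.

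**Figure D4:**
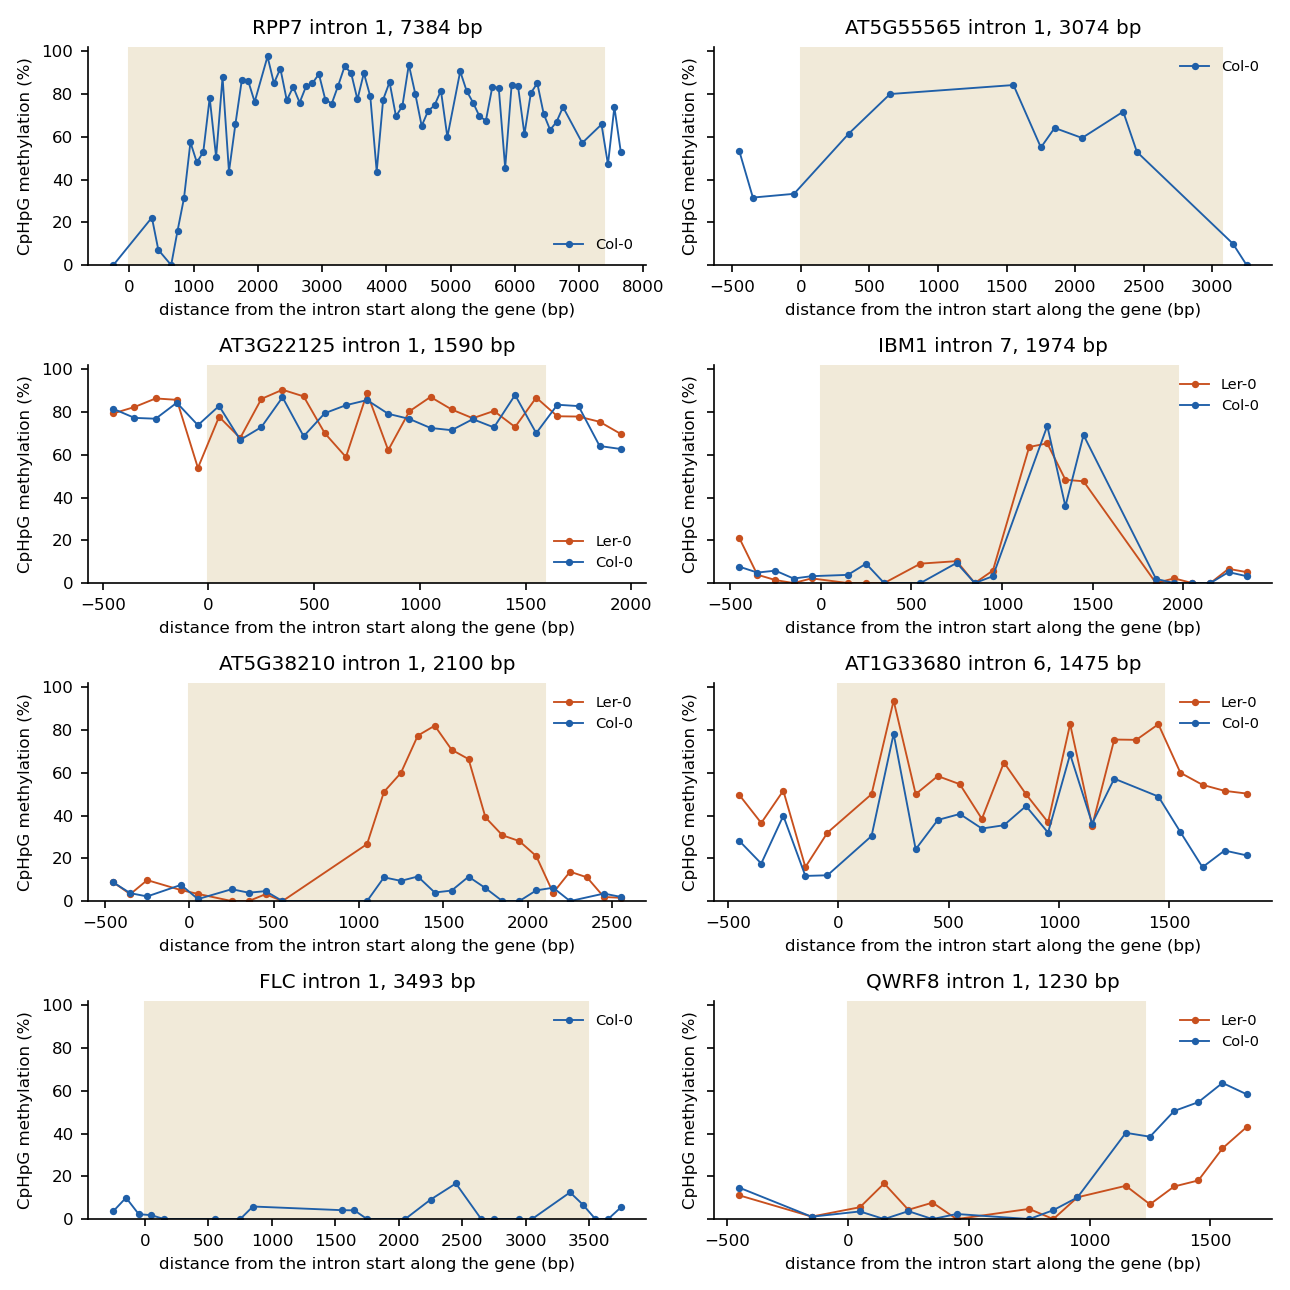
CpHpG methylation (vertical axis, %) in windows of 100 bp with at least 3 covered CpHpG cytosines along 8 long introns and 500 bp on either side, by distance from the intron start (horizontal axis, bp), with the intron shaded. Ler-0 is orange and Col-0 blue, and introns without a covered place in Ler-0 show Col-0 alone. RPP7 is methylated from about 900 bp onwards, IBM1 in a block near 1200 bp in both libraries, AT5G38210 reaches 82.0% in Ler-0 and 11.5% in Col-0, and FLC has no window above 16.7%.

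In CpCpG trinucleotides, the external cytosine is in the CpHpG context and the internal one in CpG. Sites where both cytosines had 5 or more reads were called methylated at 50% for the internal and 25% for the external cytosine. Of 1311 such sites in long introns in Ler-0, 27.4% were methylated at both cytosines, 20.6% at the internal cytosine alone and 0.31% at the external one alone. Of 2376 sites in Col-0, the shares were 28.5%, 16.96% and 0.25%. Where the internal cytosine was methylated, the external one was as well at 57.1% of sites in Ler-0 (95% Wilson interval 53.2 to 60.9%) and 62.7% in Col-0 (59.7 to 65.5%). In the exons of the same genes it was 46.3% in Ler-0 (43.9 to 48.7%) and 43.2% in Col-0 (41.0 to 45.4%), and in shorter introns 53.6% in Ler-0 and 48.4% in Col-0. These intervals cover counting error only. In long introns 1249 further sites in Ler-0 and 2210 in Col-0 had too few reads and were left out. In exons 4558 and 4003 were left out, beside 6648 and 7754 used, and in shorter introns 10587 and 13140, beside 13995 and 18811 used. Whether the sites left out had other patterns was not tested. By trinucleotide, long introns had 30.1% at CpApG, 28.9% at CpTpG and 19.8% at CpCpG in Ler-0, and 27.4%, 26.4% and 20.9% in Col-0. The exons had 22.8%, 21.9% and 10.6% in Ler-0, and 16.9%, 15.6% and 9.85% in Col-0, so CpCpG was the lowest of the 3 in each of these sets.

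Between the libraries, the 240 introns covered in both had a median CpHpG level of 6.49% in Ler-0 and 3.83% in Col-0, and 151 of them were higher in Ler-0. CpHpG methylation was called higher in Ler-0 in 11 of 240 (13.9% of all 18210 introns tested) and lower in 7 (2.54% of all). The share called higher was thus under that over all introns, while the share called lower was near it. The median difference was 0.69 points in long introns and 1.53 points in shorter ones. Of 128 introns under 5% in Col-0, 98 were also under 5% in Ler-0, 26 were at 5 to 20%, 4 at 20 to 50% and 0 above. Of 16 at 50% or more in Col-0, 11 were at 50% or more and 5 at 20 to 50% in Ler-0. Spearman's rho over these introns was 0.77, a description of introns that share 2 libraries. Restricting both libraries to cytosines found in the same context in each genome left 11 and 7 calls.

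AT5G38210, which encodes a protein kinase, had the largest excess of Ler-0 over Col-0. Its first intron (chr5:15261792-15263891, 2100 bp) was methylated at 52.8% of 1963 CpHpG calls in Ler-0 and 6.31% of 1221 in Col-0. The difference of 46.5 points had an adjusted p of 3.8e-178, and Ler-0 windows peaked at 82.0% at 1400 to 1500 bp, where Col-0 had 4%. Exons of other models and another annotated gene overlap this intron, and their part in the difference was not tested. The exons of the representative model were at 4.34% in Ler-0 and 2.99% in Col-0, and the intron's CpG level was 73.6% in Ler-0 and 31.1% in Col-0. AT5G08520, encoding a homeodomain-like protein, followed with 44.0% in Ler-0 and 4.32% in Col-0 (Fisher's exact test, adjusted p = 9.7e-90), and here the exons stood at 27.6% in Ler-0 and 4.14% in Col-0. AT1G43690 had 58.8% in Ler-0 and 21.8% in Col-0, and NOV, a gene needed for leaf vein formation, 49.5% in Ler-0 and 16.4% in Col-0. AT4G10070, for a KH domain protein, had 37.9% in Ler-0 and 9.59% in Col-0. HSFA1D, a heat shock factor gene outside the naming rule, had 40.1% CpHpG in Ler-0 and 12.5% in Col-0. Its CpG levels were 9.30% in Ler-0 and 0% in Col-0. In 10 of the 11 gains CpHpH methylation in Ler-0 stayed at 7.09% or less, and AT1G48820, at 13.0% in Ler-0 and 18.2% in Col-0, was the exception.

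Among the 7 introns lower in Ler-0 were some with little methylation in any context there. The first 3 given here were chosen after their values were seen. UMAMIT45, of a family of amino acid transporters, had 2.19% CpHpG in Ler-0 and 31.2% in Col-0 (Fisher's exact test, adjusted p = 1.2e-20), with CpG at 0.46% in Ler-0 and 41.1% in Col-0 and CpHpH at 0.50% in Ler-0 and 17.9% in Col-0. AT1G56100 likewise had 2.63% in Ler-0 and 30.6% in Col-0, with CpG at 2.84% in Ler-0 and 47.3% in Col-0. In CYP714A2 CpHpG was 39.4% in Ler-0 and 65.5% in Col-0 while CpG was 62.8% in Ler-0 and 62.4% in Col-0. AT1G24040 (20.3% in Ler-0 and 44.0% in Col-0), AT1G48970 (12.8% and 34.1%) and intron 6 of NUDT22 (3.51% and 24.3%) had CpHpH under 3% in both libraries. AT2G22940 and EMB2756, also lower in Ler-0 by 11.1 and 10.5 points, were below the 20 points needed for a call.

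CpHpH methylation was lower in Ler-0 in 11 long introns (0.335% of all introns tested) and higher in 1 (0.269% of all). Among 24 CpHpH-rich introns of Col-0 covered in Ler-0, the median CpHpH level was 12.0% in Ler-0 and 19.6% in Col-0, and 22 of 24 were lower in Ler-0. They had been chosen by their Col-0 level, so part of that shift is set by the choice. The 11 called lower include AT1G14800, with 7.80% in Ler-0 and 25.6% in Col-0, at CpHpG levels of 55.0% in Ler-0 and 57.6% in Col-0. They also include FMO GS-OX2, with 30.4% in Ler-0 and 41.1% in Col-0, at CpHpG levels of 53.7% in Ler-0 and 56.5% in Col-0. Both were chosen after their values were seen. One of the 11, AT3G16525, was placed in Ler-0 away from its flanking exons, so its Ler-0 level comes from another place. Of 365 placed long introns with both flanking exons placed, 364 lay between them. The single call higher in Ler-0 was AT1G61565, with 14.1% CpHpH in Ler-0 and 1.39% in Col-0.

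Some methylated introns of Col-0 had no unique place in Ler-0. Of 59 long introns without a unique place, 50 aligned over under 80% of their length, 8 had more than 1 place and 1 did not align. Their median CpHpG level in Col-0 was 16.9%, against 3.31% for the 374 placed introns, and 16 of the 50 introns called higher than their exons in Col-0 were not placed. For 29 of the 59, both flanking exons were placed, and in 9 of these the exons lay closer in Ler-0 than 50% of the Col-0 intron length, with 6 of the 9 at 20% CpHpG or more in Col-0. Of the 4 named here, all but AT5G17165 were chosen after their values were seen. In PHT1;8, a phosphate transporter gene, the exons were 786 bp apart in Ler-0 and 3066 bp in Col-0, and CpHpG methylation was 3.45% of 145 calls between them in Ler-0 and 49.6% of 1381 calls in Col-0. In AT5G17165 they were 1315 bp apart in Ler-0 and 4209 bp in Col-0, with 1.90% of 211 calls in Ler-0 and 57.3% in Col-0. AT1G10586 had 399 bp with 0 of 61 calls methylated in Ler-0 and 1603 bp at 39.6% in Col-0. In TT8, a regulator of flavonoid genes, the distance was 150 bp in Ler-0 and 1684 bp in Col-0, and the stretch in Ler-0 held no CpHpG call, beside 29.6% in Col-0. Repeat shares of these 4 introns in Col-0 were 53.0%, 50.04%, 23.6% and 63.7%.

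**Figure D5:**
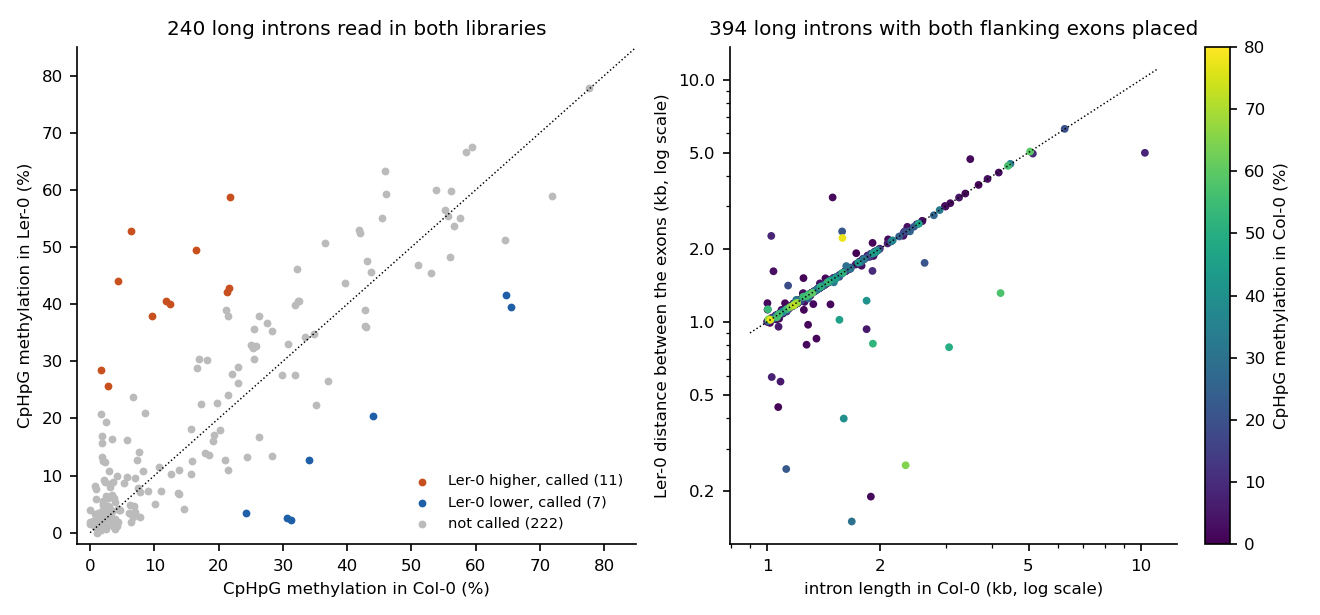
Left, CpHpG methylation of 240 long introns in Ler-0 (vertical axis, %) against Col-0 (horizontal axis, %), with 11 called higher (orange) and 7 called lower (blue) in Ler-0. Right, the distance between the flanking exons in Ler-0 against the intron length in Col-0 (kb, log axes) for 394 long introns, coloured by CpHpG methylation in Col-0. Most points lie on the dotted line of equal length, with 357 within 90 to 110%, and PHT1;8 (0.786 and 3.07 kb) and TT8 (0.15 and 1.68 kb) lie far under it.

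Gene groups are given with counts set beside 32 of 433 at 50% or more and 108 of 433 (24.9%) at 20% or more over all long introns in Col-0. Of 23230 introns of any length in Col-0, 1166 were at 50% or more and 5308 at 20% or more. Of genes known for methylated introns, RPP7 and IBM1 had introns that met the rule, and AT3G05410 and AT1G11270 had none. Disease resistance genes had 9 introns in 8 genes, with a median of 21.5% and 4 at 50% or more, namely those of RPP7 and the TIR-NBS-LRR genes AT1G63870 (73.8%, exons 9.30%) and AT4G11340 (54.0%, exons 2.12%), and 4 of 9 called higher than their exons, where the call was made in 50 of 425 long introns and 7.02% of all introns tested. WRR4, a white rust resistance gene, had 1.63%. MADS-box genes had 9 introns with a median of 2.80%, of which 8 were under 5% and 0 of the 7 with covered exons were called different from them. Among them FLC (chr5:3175662-3179154, 3493 bp) had 2.03% of 590 calls with exons at 2.06%, AG, which sets floral organ identity, 2.90% of 310 calls in its second intron (2999 bp), STK, an ovule identity gene, 2.46% in Ler-0 and 3.83% in Col-0, and CAL 2.44% in Ler-0 and 1.82% in Col-0. AT1G33070 was the exception, at 24.2% in Ler-0 and 21.5% in Col-0. AGL16 had 16.9% in Ler-0 and 1.77% in Col-0, which was not called. FLC, AG and MAF4 were not covered in Ler-0. Of 16 silencing genes IBM1 alone had a long intron. Kinase genes, taken by the word kinase in their product names and so including NOV, had 20 introns with a median of 4.06% in Col-0. The 11 covered in Ler-0 had a median of 13.9% there. These medians are over different sets of introns, and over all long introns they were 6.49% in Ler-0 and 3.51% in Col-0. Of the 20 introns, 2 were at 50% or more in Col-0, AT1G27570 (62.4%) and AT4G11373 (67.4% in Ler-0 and 59.5% in Col-0). In both, the exons were methylated too, at 52.4% and 65.4% in Col-0. The list goes by product name and leaves out YAK1, whose intron stood at 55.7% and whose exons stood at 18.9% in Col-0.

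The highest levels, among introns in which 30 or more CpHpG cytosines had 5 or more reads, did not all belong to methylated introns in unmethylated genes. AT3G22125 had 77.9% in Ler-0 and 77.6% in Col-0 with CpHpH at 48.8% in Ler-0 and 53.7% in Col-0, all 15 windows at 50% or more in Col-0, and exons at 70.2% in Ler-0 and 70.7% in Col-0. Exon models of other transcripts overlap this intron, and its repeat share was 69.5%. It lies in the stretch of chromosome 3 in which fewer Ler-0-only cytosines had reads. AT2G19360 (62.6% in Col-0, exons 63.8%) and AT2G06570 (66.6% in Ler-0 and 58.5% in Col-0, exons 54.6% in Col-0) also had methylated exons. Their repeat shares were 80.9% and 74.8%. AT1G36325 had 59.9% in Ler-0 and 53.8% in Col-0, with exons at 42.7% in Ler-0 and 35.8% in Col-0.

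By position, first introns (237 of the 433) were at a median of 3.31% in Col-0 and later introns at 4.03%. By location, 92 of 367 introns between coding exons (25.1%), 13 of 48 in 5′ leaders (27.1%) and 3 of 18 in 3′ trailers (16.7%) were at 20% or more. Another annotated gene overlapped 77 long introns, and 27 of these (35.1%) were at 20% or more, against 81 of 356 others (22.8%). By chromosome the share ran from 19.0% (chromosome 5) to 29.6% (chromosome 1). None of these differences was tested.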

How the data were processed

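Whole-genome bisulfite libraries of ibm1-1 plants were analysed, 1 in Ler-0 and 1 in Col-0, each made from 150 ng of DNA. Reads were mapped by the authors with Bismark, using TAIR10 for Col-0 and a PacBio assembly for Ler-0, and duplicates were collapsed before cytosine reports were deposited. The submitters' processing notes also name Trimmomatic. The deposited values are raw counts of methylated and unmethylated calls per cytosine, with no normalization. The sources used here give no tool versions.

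Introns and exons came from the representative (first) models of the RefSeq annotation (Araport source) on the TAIR10 sequence, whose bases matched the Col-0 report except at 2 positions. The Ler-0 sequence was rebuilt from its report, with unresolved A and T bases written as 1 letter in both genomes, and introns and exons with 150 bp of flank were placed with bwa 0.7.19 (mapping quality of at least 20, a score gap of 20 or more to any other place, 80% aligned over 80 to 120% of the length). Exons were used in Ler-0 where 80% of their length was placed. Coverage needed 10 covered CpHpG cytosines and a mean of 4 reads.

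Calls were compared with Fisher's exact test (two-sided), adjusted by Benjamini-Hochberg over all introns with the coverage, and called at an adjusted p under 0.01 and 20, 40 or 10 points in CpHpG, CpG or CpHpH. Calls on 1 read are not independent. Wilson and order-statistic intervals are at 95% and cover counting error only. In simulated Ler-0 against Col-0 comparisons on 18210 introns of any length, 80.5% of 200 introns changed by 25 points and 98.5% of 200 changed by 40 points were recovered, and 0 of 18010 unchanged introns were called. The simulated calls were independent of each other and unchanged introns had 1 level in both libraries, so these shares are not error rates for the real reads. Of 500 simulated stretches 492 were placed, all of these within 20 bp of both true ends. The stretches were cut from the Ler-0 sequence itself, with bases changed but none inserted or deleted, so they do not show how well Col-0 introns were placed.

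The members, lists and rules were chosen with earlier results of these data known. Named were IBM1, RPP7, AT3G05410, AT1G11270, FLC and AG where members. Further, among members with at least 30 CpHpG cytosines of 5 reads, named were the 5 highest in each library, the 5 largest differences each way between libraries and the 3 largest each way between intron and exons, and also the 3 longest introns. Other names were chosen after their values were seen. Alternatives covered depth, length, overlap, averaging, chloroplast correction, exon parts, chromosome 3, thinning of Col-0, the difference limits, minimap2 2.31, stricter placement, shared cytosines and, added after the placements were seen, leaving out AT3G16525. Calculations used Python 3.11.15, numpy 2.4.6, pandas 2.3.3, scipy 1.17.1 and matplotlib 3.10.9.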

Additional observations from a re-analysis of the deposited data

How the results depend on the processing

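Of 122 values recomputed for 17 results under 13 alternatives, 73 stayed close and 49 moved. A count stayed close within 1.5 times its value, a median within its 95% interval, and a pooled level of the profile within 1 standard error over introns. Stricter membership moved most of them. With a mean of at least 8 reads, 109 introns were left, with medians of 41.3% in Ler-0 and 24.3% in Col-0, 19 at 50% CpHpG or more in Col-0, 9 above and 2 below the exons in Ler-0, 17 above and 2 below in Col-0, 7 higher and 2 lower in Ler-0 than in Col-0, and 11 above and 5 below the exons for CpG in Col-0. With at least 2000 bp, 54 were left, with medians of 24.4% in Ler-0 and 14.2% in Col-0, 5 at 50% or more in Ler-0 and 10 in Col-0, 4 above and 1 below the exons in Ler-0, 12 above and 1 below in Col-0, 1 higher and 0 lower in Ler-0 than in Col-0, and 14 above and 2 below for CpG. Without introns that overlap another gene or model, 240 were left, with 8 at 50% or more in Ler-0 and 18 in Col-0, 13 above and 5 below the exons in Ler-0, 31 above and 6 below in Col-0, 7 higher and 1 lower in Ler-0 than in Col-0, and 8 below the exons for CpG. The pooled level of the innermost step at the 5′ splice site was then 23.6% in Ler-0 (20.7% with all members) and 18.7% in Col-0 (21.0%). Fewer introns enter each of these counts. With 10 points in place of 20 (and 20 in place of 40 for CpG), 47 were above and 28 below the exons in Ler-0, 78 above and 35 below in Col-0, 33 higher and 13 lower in Ler-0 than in Col-0, and 90 above and 66 below for CpG in Col-0. Averaging single cytosines left 4 lower in Ler-0 than in Col-0. The chloroplast correction gave a median of 2.20% in Col-0. Thinning Col-0 to the mean depth of Ler-0, which left 298 members, gave a median of 5.80% and 10 below the exons in Col-0. No paired analysis was possible because each ecotype has 1 library.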

Other observations

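The introns given here were chosen after their values were seen and carry no test. AT4G12640, with an RNA recognition motif, had 50.6% CpHpG in Ler-0 and 36.5% in Col-0 in an intron of 2167 bp. AT3G22430, with an XS domain, had 27.6% in Ler-0 and 31.9% in Col-0, and lies in the first 9000000 bp of chromosome 3. RIK, which encodes a KH domain protein, had 32.9% in Ler-0 and 25.1% in Col-0 in intron 10, with exons at 47.0% in Ler-0 and 41.0% in Col-0. AT1G27595, a symplekin gene, had 52.5% in Ler-0 and 42.0% in Col-0 in intron 5 of 26. ELF3, a component of the circadian clock, had 39.0% in Ler-0 and 21.1% in Col-0 in an intron of 1180 bp, with exons at 9.04% in Ler-0 and 9.50% in Col-0.

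PHOT1, the blue light receptor gene, had 29.5% CpHpG, 27.2% CpG and 13.7% CpHpH in an intron of 1628 bp in Col-0, with a repeat share of 0% and exons at 3.17% CpHpG, and it was not covered in Ler-0. The intron of AT1G66880, a protein kinase gene, held more CpHpH than CpHpG methylation in both libraries, with 14.5% CpHpH and 13.9% CpHpG in Ler-0 and 25.9% CpHpH and 17.9% CpHpG in Col-0. GATL6 had its flanking exons 2264 bp apart in Ler-0 and 1026 bp in Col-0, with CpHpG at 15.9% of 334 calls in Ler-0 and 8.36% in Col-0.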
